A study of Mus musculus with 10 samples.

Results

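The Gadd45 family was followed through a perturbation experiment in mouse embryonic stem cells (ESCs). Its members, Gadd45a, Gadd45b and Gadd45g, were taken by gene symbol, 3 of the 24370 symbols in the table, and all 3 passed the filter on low values. They were proposed with their levels already known, so their levels and differences are described here without a test. Polyadenylated RNA had been sequenced in 10 libraries, 2 for each of 5 groups. The WT group was cultured untransfected. For Usp17le OE, cells carried a plasmid expressing Usp17le, a deubiquitinase gene, under puromycin selection. For Dux KD they carried, again under puromycin, a hairpin that targets Dux, whose product activates genes of the 2-cell embryo. For Usp17le OE-Dux KD the hairpin was put into cells that already overexpressed Usp17le, and for Dux KD-Usp17le OE the plasmid was put into cells that already held the hairpin. The study asked whether Usp17le acts on the 2-cell-like (2C) gene program through Dux. Cells with a control plasmid or control hairpin were not analysed here, so transfection and selection cannot be told apart from the manipulations in any comparison with WT. The labels name the line J1. The methods of the paper name E3 for Usp17l knockdown and overexpression, and no line for the Dux hairpin. Neither source states how the libraries of a group were kept apart. Replicates of RNA-seq after Usp17le overexpression are called biological in legends of the paper. The paper also lists a separate overexpression series, however, and does not say whether those legends cover the libraries used here. For the other groups no source used here calls them biological. Whether the libraries were separate cultures is thus not known for any group. P-values measure the spread between these libraries, which may in part be technical.

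GADD45 proteins are small nuclear proteins without known enzymatic activity that are induced when cells stop dividing or meet stress. They bind the kinase MAP3K4 and so feed the p38 and JNK stress pathways, and they bind PCNA, the cyclin-dependent kinase inhibitor p21 and the CDK1-cyclin B1 complex. They also recruit TET and base excision repair enzymes to chosen loci, where methylated cytosine is replaced, and in mouse ESCs the family has been linked to locus-specific demethylation and to the 2C-like state. The members differ in what induces them. Gadd45a is a classical target of p53, Gadd45b responds to NF-kB and TGF-beta signalling, and Gadd45g is known for cytokine responses, gonad development and neural differentiation.

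The libraries held between 32188285 and 50457228 reads, recovered from the deposited values. The ESC markers Pou5f1 (1610 to 1827 TPM over the 10 libraries), Sox2 (252 to 529 TPM) and Nanog (266 to 964 TPM) were abundant everywhere. TPM divides reads by gene length and scales each library to a fixed sum, so levels can be compared between genes. Usp17le stood at 1.77 and 0.649 TPM for WT, 28.7 and 35.6 TPM for Usp17le OE, 0.466 and 0.424 TPM for Dux KD and 11.1 and 10.6 TPM for Usp17le OE-Dux KD. In both libraries labelled Dux KD-Usp17le OE it stood at 0.941 and 1.63 TPM, inside the WT range, and every direction drawn below from these libraries carries that limit. Dux was counted from few reads. WT had 5 and 12, Dux KD 4 and 0, Usp17le OE 80 and 75, Usp17le OE-Dux KD 15 and 16, and the libraries labelled Dux KD-Usp17le OE 6 and 2. Only reads that map once were counted. The paper describes identical stretches shared by the Usp17l genes and tandem repeats at Dux, so reads of both may be lost. Counts of Usp17le also do not separate plasmid from endogenous transcripts. The summed level of the 10 2C markers was 19.0 to 20.5 TPM for WT, 347 to 386 TPM for Usp17le OE, 3.09 to 3.93 TPM for Dux KD, 62.0 to 62.9 TPM for Usp17le OE-Dux KD and 11.1 to 11.3 TPM in both libraries labelled Dux KD-Usp17le OE. In bulk RNA such as this, fewer cells of a type and less RNA per cell cannot be told apart.

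The members are short, protein-coding genes of 4 exons each on separate chromosomes (GENCODE M21, build mm10). Gadd45a lies on chromosome 6 (67035096 to 67037457, minus strand), Gadd45b on chromosome 10 (80930073 to 80932204, plus strand) and Gadd45g on chromosome 13 (51846678 to 51848468, plus strand). A noncoding gene, E230016M11Rik, overlaps Gadd45a on the opposite strand. The counting ignored strand, and this gene was given 0 to 15 reads a library against 482 to 774 for Gadd45a. These counts do not show how many reads of Gadd45a, if any, were lost to the overlap.

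Because Gadd45b and Gadd45g moved together across the groups and Gadd45a did not, the 250 bases before each RefSeq transcription start (GRCm38.p6) are shown, at chr6:67037408-67037657 (minus strand), chr10:80929841-80930090 (plus strand) and chr13:51846425-51846674 (plus strand). Capitals mark the octamer ATTTGCAT (read on either strand), the CCAAT box (read on either strand) and the palindromic E-box CACGTG.
Gadd45a: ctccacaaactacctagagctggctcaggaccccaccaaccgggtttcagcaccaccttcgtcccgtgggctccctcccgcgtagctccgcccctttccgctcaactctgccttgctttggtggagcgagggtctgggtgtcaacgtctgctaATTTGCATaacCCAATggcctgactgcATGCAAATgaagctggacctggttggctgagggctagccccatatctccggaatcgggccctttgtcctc
Gadd45b: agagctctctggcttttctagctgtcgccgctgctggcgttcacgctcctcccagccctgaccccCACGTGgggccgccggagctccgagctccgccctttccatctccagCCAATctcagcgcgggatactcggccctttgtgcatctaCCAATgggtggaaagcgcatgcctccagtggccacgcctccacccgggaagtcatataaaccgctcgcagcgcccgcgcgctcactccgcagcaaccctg
Gadd45g: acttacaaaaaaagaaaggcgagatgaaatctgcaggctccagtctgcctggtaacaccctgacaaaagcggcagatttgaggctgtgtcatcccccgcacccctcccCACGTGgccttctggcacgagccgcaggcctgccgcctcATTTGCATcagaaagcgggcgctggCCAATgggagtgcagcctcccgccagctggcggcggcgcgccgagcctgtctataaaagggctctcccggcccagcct

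These motifs were picked after the sequences were seen, and a match is a description of letters, not of a bound site. Distances count from the RefSeq starts, which differ from the GENCODE coordinates given above. The windows of Gadd45a and Gadd45b reach into the genes as GENCODE places them. The octamer, the sequence that POU factors such as Oct-1 and Oct4 recognise, is present in 1.6% of 32851 promoter windows of this length. It occurred in Gadd45a with its first base 97 and 70 bases before the start and in Gadd45g at 103 bases, and not in Gadd45b. The CCAAT box, read by the NF-Y complex and present in 33.8% of windows, occurred at 86 bases in Gadd45a, at 139 and 100 bases in Gadd45b and at 78 bases in Gadd45g. The E-box CACGTG, read by MYC-MAX and USF dimers and present in 6.02% of windows, occurred at 185 bases in Gadd45b and 142 bases in Gadd45g. The TATA motif TATAAA, present in 12.4%, likewise occurred in Gadd45b (46 bases) and Gadd45g (27 bases). A composite ATF4 element, TGATGNAA (3.45% of windows), occurred at 101 bases in Gadd45g, where it overlaps the octamer. GGGCGG, the GC box (32.7%), occurred in Gadd45a and Gadd45b. The AP-1 site TGANTCA and the cyclic AMP element TGACGTCA had no match in these windows. All motifs were searched on both strands.

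**Figure D1:**
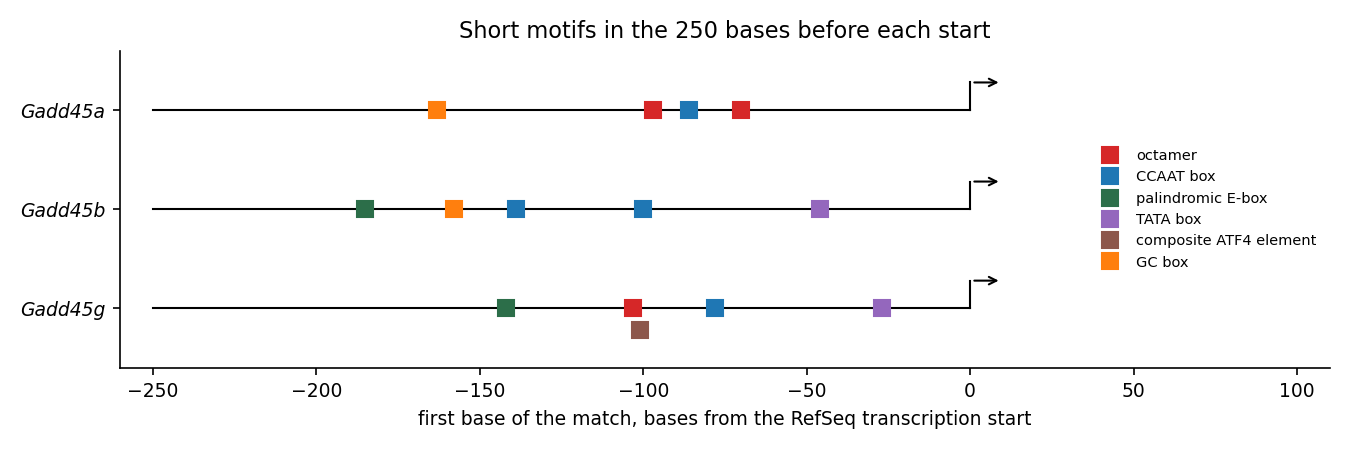
Positions of short motifs in the 250 bases before the RefSeq start of each Gadd45 gene; the x axis gives the first base of a match in bases from the start, and colours give the motif. The E-box and TATA motif appear for Gadd45b and Gadd45g, the octamer for Gadd45a and Gadd45g, and the CCAAT box for all 3 genes.

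Gadd45g had the widest range of the family. Its level was 61.6 and 63.2 TPM for WT, 1.92 and 2.62 TPM for Usp17le OE, 7.76 and 6.81 TPM for Dux KD, 2.94 and 4.05 TPM for Usp17le OE-Dux KD, and 14.3 and 17.2 TPM in both libraries labelled Dux KD-Usp17le OE. Both WT libraries were far above all others, and the order of the groups was WT, Dux KD-Usp17le OE, Dux KD, Usp17le OE-Dux KD and Usp17le OE. No neighbours in that order overlapped. For all genes tested, libraries did not overlap for 76.8% between WT and the libraries labelled Dux KD-Usp17le OE, 58.6% between these and Dux KD, 68.2% between Dux KD and Usp17le OE-Dux KD, and 81.4% between Usp17le OE-Dux KD and Usp17le OE, so separation as such was common. The group means were 62.4 ± 1.12, 15.8 ± 2.05, 7.28 ± 0.667, 3.49 ± 0.789 and 2.27 ± 0.493 TPM (SD, n = 2) in that order, and Usp17le OE retained 3.64% of the WT level. Counting set a limit at the low end. Gadd45g had 40 and 56 reads in Usp17le OE and 54 and 83 in Usp17le OE-Dux KD, against 1393 and 1562 in WT.

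Gadd45b was the most abundant member in every library and followed a similar but shallower course. It stood at 201 and 199 TPM for WT, 34.9 and 35.5 TPM for Usp17le OE, 84.7 and 87.3 TPM for Dux KD, 58.8 and 54.0 TPM for Usp17le OE-Dux KD, and 84.0 and 87.3 TPM in both libraries labelled Dux KD-Usp17le OE. WT was again highest and Usp17le OE lowest. Dux KD and the libraries labelled Dux KD-Usp17le OE overlapped, with means of 86.0 ± 1.89 and 85.7 ± 2.30 TPM (SD, n = 2), and the other neighbours in the order did not (75.7% of all genes did not overlap between the latter group and Usp17le OE-Dux KD). The level in Usp17le OE was 17.6% of WT and that in Dux KD 43.0%.

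Gadd45a stayed within a narrow band. Its level was 21.4 and 20.3 TPM for WT, 27.0 and 19.9 TPM for Usp17le OE, 25.7 and 25.3 TPM for Dux KD, 26.6 and 27.6 TPM for Usp17le OE-Dux KD, and 25.3 and 22.6 TPM in both libraries labelled Dux KD-Usp17le OE. The libraries of Usp17le OE spanned those of WT, of Dux KD and of the group labelled Dux KD-Usp17le OE, and overlapped those of Usp17le OE-Dux KD. The group means ran from 20.9 ± 0.760 TPM for WT to 27.1 ± 0.759 TPM for Usp17le OE-Dux KD (SD, n = 2), and Dux KD lay above WT without overlap (80.5% of all genes tested did not overlap between these groups).

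**Figure D2:**
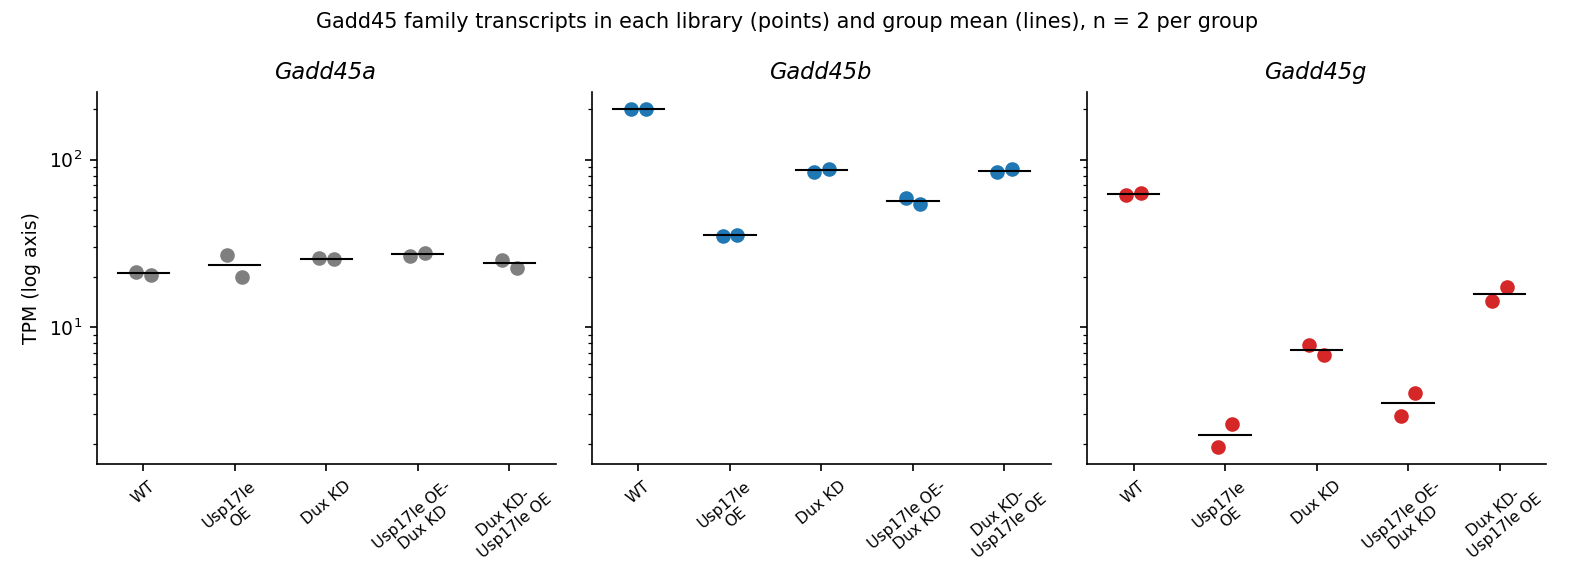
TPM of each Gadd45 gene (log axis) in the 10 libraries; points are libraries and lines are means of 2 libraries per group. Gadd45a stays between 19.9 and 27.6 TPM, the mean of Gadd45b is highest for WT and 35.2 TPM for Usp17le OE, and that of Gadd45g is 62.4 TPM for WT and 2.27 TPM for Usp17le OE.

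Summed over the family, WT held 283 TPM, the libraries labelled Dux KD-Usp17le OE 125 TPM, Dux KD 119 TPM, Usp17le OE-Dux KD 87.0 TPM and Usp17le OE 60.9 TPM. The make-up of this sum changed with its size. Gadd45b gave 57.9% to 72.4% of it in the group means. Gadd45g gave 22.0% in WT and 3.77% in Usp17le OE, whereas Gadd45a gave 7.36% in WT and 38.3% in Usp17le OE. In WT, Gadd45g transcripts outnumbered those of Gadd45a 2.88-fold and 3.11-fold in the libraries. In each of the other groups the ratio of Gadd45g to Gadd45a was below 1, down to 0.0713 in a Usp17le OE library. The ratio of Gadd45b to Gadd45g was 3.26 and 3.16 for WT, 18.1 and 13.5 for Usp17le OE, and 5.86 and 5.06 in both libraries labelled Dux KD-Usp17le OE. Relative to WT, Gadd45g was thus lower by a larger factor than Gadd45b in each manipulated group.

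The comparisons are given as differences in log2(TPM + 0.1), with the standard error of a fit over all 10 libraries. Ribosomal protein genes took 30.3% and 30.2% of the TPM sum for WT, 28.1% and 26.1% for Usp17le OE and 20.8% and 19.0% for Dux KD. They took 20.2% and 21.2% for Usp17le OE-Dux KD, and 24.0% and 23.4% in both libraries labelled Dux KD-Usp17le OE. With a fixed sum per library, the median gene itself shifted. Its difference was 0.26 for Usp17le OE minus WT, 0.38 for Dux KD minus WT, 0.29 for Usp17le OE-Dux KD minus Usp17le OE and -0.10 for Dux KD-Usp17le OE minus Dux KD. For Usp17le OE-Dux KD and Dux KD-Usp17le OE minus WT it was 0.56 and 0.29, and between these groups it was -0.23 for the latter minus the former. Member values are therefore also given after median-ratio scaling, which divides a library by its median ratio to the geometric mean of all libraries.

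In Usp17le OE against WT, Gadd45g differed by -4.74 ± 0.17 (-5.00 after scaling) and Gadd45b by -2.50 ± 0.06 (-2.77 after scaling). Among the 14706 genes tested, Gadd45g ranked 5th from the lowest difference and Gadd45b 160th. Gadd45a differed by 0.15 ± 0.12, at the percentile 44.4 of all genes, and by -0.11 after scaling. The libraries of the groups were apart for Gadd45b and Gadd45g and overlapped for Gadd45a, where 82.8% of all genes were apart. Gadd45b and Gadd45g thus lay near the lower end of the distribution of all genes and Gadd45a near its middle. Leaving out either Usp17le OE library moved Gadd45a to -0.07 or 0.37.

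In Dux KD against WT the same order held with smaller values. Gadd45g differed by -3.08 ± 0.17 (-3.49 after scaling), rank 42 from the lowest, and Gadd45b by -1.22 ± 0.06 (-1.63 after scaling), rank 459. Gadd45a differed by 0.29 ± 0.12 as deposited and by -0.12 after scaling, so its direction depends on the scaling. The summed 2C markers, given above, were higher than WT in Usp17le OE and lower in Dux KD, while Gadd45b and Gadd45g were lower in both.

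Adding the hairpin to Usp17le OE cells gave small positive differences. Gadd45b differed by 0.68 ± 0.06 (0.37 after scaling), Gadd45g by 0.60 ± 0.17 (0.30 after scaling) and Gadd45a by 0.22 ± 0.12 (-0.08 after scaling). Gadd45b and Gadd45g lay at percentiles 72.4 and 68 of all genes, so relative to the median gene the positive differences were modest. Leaving out each library in turn, the Gadd45g difference ranged from 0.37 without Usp17le OE-Dux KD replicate 2 to 0.82 without its replicate 1, and was 0.38 and 0.81 without Usp17le OE replicates 1 and 2. Against WT, the Usp17le OE-Dux KD libraries still differed by -4.14 ± 0.17 for Gadd45g, rank 6 from the lowest, and by -1.83 ± 0.06 for Gadd45b.

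Adding the plasmid to Dux KD cells, in both libraries labelled Dux KD-Usp17le OE, gave a Gadd45g difference of 1.10 ± 0.17 (1.20 after scaling), at the percentile 98 of all genes. Gadd45b differed by -0.01 ± 0.06 and Gadd45a by -0.09 ± 0.12. The libraries were apart for Gadd45g and overlapped for Gadd45b, and for Gadd45a the nearest libraries of the groups both stood at 25.3 TPM. Against WT these libraries differed by -1.98 ± 0.17 for Gadd45g and -1.22 ± 0.06 for Gadd45b, and against Usp17le OE-Dux KD by 2.16 ± 0.17 and 0.60 ± 0.06.

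The effect of a manipulation can be set beside its effect when the other was already present. The overexpression difference of Gadd45g was -4.74 on WT cells and 1.10 on Dux KD cells, 5.84 ± 0.24 apart, and that of Gadd45b was -2.50 and -0.01, 2.50 ± 0.08 apart. The knockdown difference of Gadd45g was -3.08 on WT cells and 0.60 on Usp17le OE cells, 3.68 ± 0.24 apart, and that of Gadd45b was -1.22 and 0.68, 1.90 ± 0.08 apart. For Gadd45a both gaps were under 0.3 in size, -0.24 ± 0.17 and -0.06 ± 0.17. Each gap includes a comparison with WT, and the Dux KD cells given the plasmid had Usp17le in the WT range. From Usp17le OE to Usp17le OE-Dux KD, mean Usp17le also fell, from 32.1 to 10.8 TPM. Mean Dux in Usp17le OE-Dux KD was 0.426 TPM, from few reads, against 0.188 TPM for WT and 0.0511 TPM for Dux KD. The knockdown differences on the backgrounds thus do not compare the same change of Dux.

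**Figure D3:**
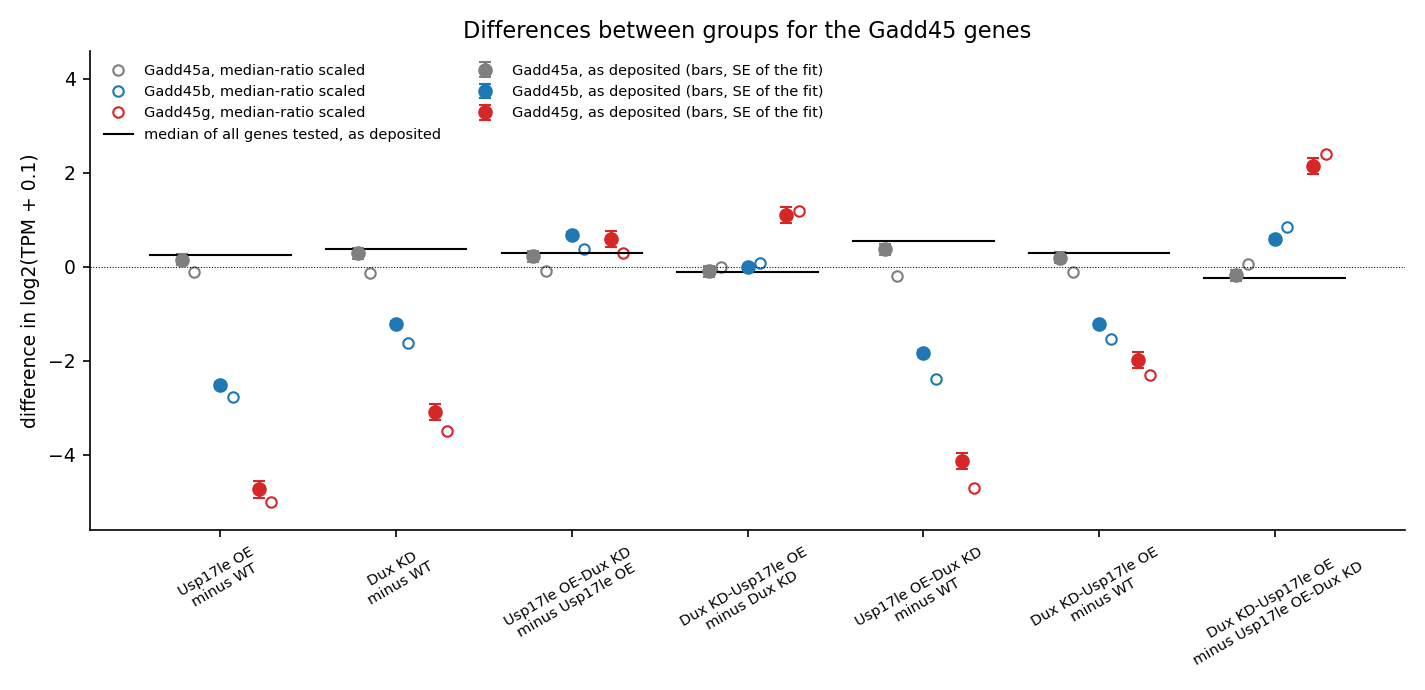
Differences in log2(TPM + 0.1) of each Gadd45 gene in 7 comparisons; filled points are values as deposited with bars of 1 SE of the fit, open points are after median-ratio scaling, and black lines are the median of all genes tested. Gadd45a lies close to the black line in all 7, at most 0.18 below it, and Gadd45g reaches -4.74 in Usp17le OE minus WT.

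Transcripts of other cell types were low or moved as follows. Fibroblast feeder cells defined by Col1a2 (0.0784 to 0.787 TPM) and Postn (0 to 0.143 TPM) were near 0, with Col1a1 at 0.732 to 2.16 TPM and Thy1 at 11.3 to 24.4 TPM. Of 11 feeder markers, 5 stayed under 1 TPM in all libraries, and their sum was 89.2 to 90.0 TPM for WT, 28.7 to 29.1 TPM for Usp17le OE, 73.8 to 79.1 TPM for Dux KD, 48.7 to 51.3 TPM for Usp17le OE-Dux KD and 105 to 106 TPM in both libraries labelled Dux KD-Usp17le OE. Acta2 gave the most to it for WT (48.1 TPM), Dux KD (43.7 TPM) and the libraries labelled Dux KD-Usp17le OE (69.3 TPM), but stood at 1.96 TPM for Usp17le OE and 8.69 TPM for Usp17le OE-Dux KD, below Thy1. The 8 neural markers, of which Dcx was at 0 in all libraries, summed to 368 to 376 TPM, 188 to 190 TPM, 301 to 304 TPM, 286 to 305 TPM and 337 to 349 TPM in the same groups, mostly from Stmn2, while Sox1 (0.200 to 3.52 TPM) and Pax6 (1.48 to 7.21 TPM) were low. Group means of the neural sum, and of Stmn2 alone, had the order of Gadd45g, though Dux KD and Usp17le OE-Dux KD overlapped in the sum. Tubb3 and Sox1 did not have it. Tubb3 was lowest for WT (30.3 TPM) and highest for Usp17le OE-Dux KD (102 TPM), with 65.2 TPM for Usp17le OE and 53.7 TPM for Dux KD, and Sox1 was higher for Dux KD (2.90 TPM) than for WT (1.11 TPM). The endoderm genes Gata4 (0.887 to 3.88 TPM), Gata6 (1.17 to 4.65 TPM) and Sox17 (0.177 to 1.82 TPM) were low, and their list of 6 was highest in Usp17le OE-Dux KD (10.8 to 11.8 TPM). The part of such cells in the Gadd45 differences was not tested.

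Genes around the family were read from 6 lists of 94 genes (inducers and repressors of Gadd45 transcription, the stress kinase arm, cell cycle partners, DNA demethylation partners, other growth arrest and damage genes, and p53 targets). Of these, 92 passed the filter on low values. The exceptions were Mapk10, a JNK isoform, and Tdg, the thymine glycosylase that GADD45A recruits, whose row was at 0 in 9 of 10 libraries. Only reads that map once were counted, and whether reads of Tdg were lost to near-identical copies was not tested, so its 0 is not a measure of its expression. Calls were made in limma at a Benjamini-Hochberg adjusted p under 0.05. In Usp17le OE against WT, 47 of 92 rose and 26 fell, where 45.5% of all genes tested rose and 20.9% fell. In Dux KD against WT, 55 rose and 12 fell, where 51.4% rose and 10.7% fell. After scaling, 33 rose and 38 fell for Usp17le OE (33% and 33% of all genes) and 31 rose and 35 fell for Dux KD (28% and 25.9%). With the hairpin added to Usp17le OE cells, 50 rose and 15 fell, where 45.7% and 18.6% of all genes did, and after scaling 33 rose and 29 fell (29.7% and 30.6%). With the plasmid added to Dux KD cells, 4 rose and 4 fell, where 2.88% and 8.3% of all genes did, and after scaling 7 rose and 2 fell (3.42% and 1.75%). That count of 8 ranged from 2 to 13 when single libraries were left out. The difference of the overexpression effects passed the test for 64 of the 92 and that of the knockdown effects for 55, where 57.9% and 43.9% of all genes did. The medians of the 92 genes, 0.23, 0.33, 0.34 and -0.08 in the order of the comparisons, were near those of all genes. The named members are given below one role at a time. Counts of each list are to be read beside the shares of all genes given here for the same comparison.

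Among inducers and repressors, 10 of 19 rose and 4 fell in Usp17le OE against WT (6 and 6 after scaling). Myc, a repressor of Gadd45a, rose from 1.16 and 1.20 TPM for WT to 29.2 and 34.6 TPM for Usp17le OE, a difference of 4.64 ± 0.13 (adjusted p = 4.04e-11), and to 7.46 and 9.54 TPM for Dux KD, a difference of 2.74 ± 0.13 (adjusted p = 9.94e-09). The Gadd45a differences there were 0.15 and 0.29 as deposited and -0.11 and -0.12 after scaling. Egr1, an immediate early activator, rose by 2.71 ± 0.09 in Usp17le OE and 1.97 ± 0.09 in Dux KD (adjusted p = 2.47e-10 and 9.94e-09). Rela, the p65 subunit of NF-kB and an inducer of Gadd45b, rose by 1.02 ± 0.12 in Usp17le OE (adjusted p = 6.78e-06), where Gadd45b differed by -2.50. These are RNA levels and not the activity of the factors, whose part in the Gadd45 differences was not tested. The TGF-beta mediator Smad3 fell by 0.81 ± 0.14, Foxo3 fell by 0.76 ± 0.10 and Cebpb fell by 0.75 ± 0.25 there (adjusted p = 0.000178, 1.99e-05 and 0.0242). In Dux KD, 14 rose and none of the 19 fell, with Nfkb1 at 1.17 ± 0.11 (adjusted p = 1.37e-06), and after scaling 13 rose and 3 fell.

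When the hairpin was added to Usp17le OE cells, 14 of the 19 rose and 1 fell (12 and 2 after scaling). Smad3 rose by 1.85 ± 0.14, Cebpb by 1.23 ± 0.25 and Nfya, a subunit of the CCAAT-binding NF-Y, by 1.11 ± 0.08 (adjusted p = 1.61e-07, 0.00183 and 1.08e-07), and Myc fell by 0.71 ± 0.13 (adjusted p = 0.00043). From Dux KD to the libraries labelled Dux KD-Usp17le OE, 2 rose and 3 fell (2 and 2 after scaling). Egr1 rose by 0.70 ± 0.09 and Trp73 by 0.72 ± 0.21 (adjusted p = 0.00272 and 0.045), alongside the higher Gadd45g. Brca1 fell by 0.43 ± 0.07, Trp53, which encodes p53, fell by 0.26 ± 0.05 and Atf4, the activator of the integrated stress response, fell by 0.23 ± 0.05 (adjusted p = 0.00716, 0.0107 and 0.0176). The call of Atf4 was lost after scaling (adjusted p = 0.133). These falls began and ended above the WT mean. Mean Trp53 was 270 TPM for WT, 571 TPM for Dux KD and 478 TPM once the plasmid was added. Brca1 stood at 26.8, 52.1 and 38.6 TPM in the same order, and Atf4 at 158, 210 and 179 TPM. Mean Trp53 was also above WT for Usp17le OE (384 TPM) and Usp17le OE-Dux KD (586 TPM), whereas mean Atf4 was below WT for Usp17le OE (116 TPM).

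In the stress kinase arm, 5 of 14 genes rose and 5 fell in Usp17le OE against WT (3 and 9 after scaling). Map2k3, a kinase of p38, rose by 1.12 ± 0.08, Mapk14, the main p38, by 0.89 ± 0.07 and Map2k4 by 0.54 ± 0.08 (adjusted p = 8.59e-08, 4.28e-07 and 5.97e-05). Map2k6, the other p38 kinase, fell by 1.03 ± 0.07, and the p38 isoforms Mapk13 and Mapk12 fell by 0.74 ± 0.12 and 0.72 ± 0.16 (adjusted p = 1.04e-07, 0.000104 and 0.00168). In Dux KD, 9 rose and 1 fell (4 and 3 after scaling). Map2k3 rose by 0.96 ± 0.08, Map3k4, the kinase that GADD45 proteins bind, by 0.80 ± 0.09 and Mapk14 by 0.73 ± 0.07 (adjusted p = 4.11e-07, 6.68e-06 and 2.56e-06), and Mapk13 fell by 0.34 ± 0.12 (adjusted p = 0.0204). Adding the hairpin to Usp17le OE cells gave 8 that rose and none of the 14 that fell (4 and 4 after scaling), with Map3k4 at 1.40 ± 0.09, Map2k7 at 1.16 ± 0.07 and Mapk9 at 0.57 ± 0.07 (adjusted p = 5.92e-08, 2.84e-08 and 7.83e-06). Mean Map3k4 had been lower in Usp17le OE (12.2 TPM) than in WT (19.7 TPM), and so had Map2k7 (16.3 against 26.8 TPM). With the hairpin they stood at 32.2 and 36.5 TPM. None of the 14 was called between Dux KD and the libraries labelled Dux KD-Usp17le OE, where only 2.88% of all genes rose and 8.3% fell.

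Of 8 cell cycle partners, 5 rose and 2 fell in Usp17le OE against WT (2 and 3 after scaling). Cdk1, whose complex with cyclin B1 is a target of the family, rose by 0.78 ± 0.05 and the mitotic kinase Aurka by 0.44 ± 0.05 (adjusted p = 6.03e-08 and 1.46e-05), and Ccnb1, cyclin B1 itself, by 0.27 ± 0.06 (adjusted p = 0.00111), a call that was lost after scaling (adjusted p = 0.825). Cdkn1a, which encodes p21, fell from 72.6 and 68.7 TPM for WT to 42.1 and 40.1 TPM for Usp17le OE, by 0.78 ± 0.06, and Npm1, nucleophosmin, fell by 0.56 ± 0.04 (adjusted p = 1.65e-07 and 2.42e-07). In Dux KD, 7 rose and none of the 8 fell (2 and 4 after scaling), led by Aurka at 0.81 ± 0.05 and Ccnb1 at 0.55 ± 0.06 (adjusted p = 9.91e-08 and 3.63e-06), with Cdk1 at 0.37 ± 0.05 (adjusted p = 4.03e-05, and 0.406 after scaling). With the hairpin in Usp17le OE cells 4 rose and 2 fell (1 and 4 after scaling). Cdkn1a rose by 0.93 ± 0.06, Npm1 by 0.31 ± 0.04 and Aurka by 0.25 ± 0.05 (adjusted p = 4.21e-08, 4.12e-05 and 0.00148), of which Npm1 and Aurka lost the call after scaling (adjusted p = 0.823 and 0.409). Cdk1 fell by 0.19 ± 0.05 and Pcna by 0.12 ± 0.04 (adjusted p = 0.00743 and 0.0216). Aurka was the only partner called between Dux KD and the libraries labelled Dux KD-Usp17le OE, where it fell by 0.22 ± 0.05 (adjusted p = 0.0284, and 0.217 after scaling). Of all genes, only 2.88% rose and 8.3% fell there.

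Of 14 DNA demethylation partners tested, 7 rose and 2 fell in Usp17le OE against WT (5 and 5 after scaling). Ercc4, the XPF nuclease subunit of nucleotide excision repair, rose by 2.20 ± 0.13 and Tet2, a 5-methylcytosine dioxygenase, by 1.33 ± 0.09 (adjusted p = 2.08e-08 and 1.03e-07). The glycosylases Neil1 and Neil2 fell by 1.06 ± 0.17 and 0.92 ± 0.14 (adjusted p = 0.000135 and 7.78e-05). In Dux KD, 11 rose and none of the 14 fell (6 and 1 after scaling), with Apobec2 at 1.12 ± 0.17, Tet2 at 0.99 ± 0.09 and Tet3 at 0.95 ± 0.22 (adjusted p = 9.5e-05, 1.44e-06 and 0.00228). With the hairpin in Usp17le OE cells, 9 rose and 2 fell (6 and 2 after scaling), namely Apobec2 at 1.67 ± 0.17, Neil1 at 1.15 ± 0.17 and Tet1 at 0.74 ± 0.10 among the former (adjusted p = 3.14e-06, 7.22e-05 and 4.71e-05), and Ercc4 at -0.76 ± 0.13 and Taf12 at -0.50 ± 0.10 (adjusted p = 0.000218 and 0.000587). Tet2 rose there too, by 0.61 ± 0.09 (adjusted p = 0.000102), so it rose both where Gadd45b and Gadd45g were lower and where they were higher. None of the 14 was called between Dux KD and the libraries labelled Dux KD-Usp17le OE, where only 2.88% of all genes rose and 8.3% fell.

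Other growth arrest and damage genes held the list members that fell furthest in Usp17le OE. In Usp17le OE against WT, 8 of 19 rose and 9 fell (7 and 9 after scaling), and in Dux KD 7 rose and 5 fell (2 and 12 after scaling). Ndrg1, a stress- and hypoxia-induced gene, stood at 78.4 and 75.8 TPM for WT and at 3.27 and 3.11 TPM for Usp17le OE, a difference of -4.55 ± 0.06 (adjusted p = 4.61e-13). It was 47.6 and 50.1 TPM for Dux KD and 56.2 and 57.7 TPM for Usp17le OE-Dux KD, a rise of 4.12 ± 0.06 with the hairpin in Usp17le OE cells (adjusted p = 1.96e-12), beside a Gadd45g difference of 0.60. Ddit3, which encodes CHOP and was named GADD153, fell by 3.11 ± 0.11 in Usp17le OE and by 1.15 ± 0.11 in Dux KD (adjusted p = 2.78e-09 and 5.32e-06). GENCODE holds 2 overlapping entries of the symbol Ddit3, so its reads are uncertain. Ddit4, the mTOR inhibitor REDD1, fell by 2.78 ± 0.06 in Usp17le OE and by 0.96 ± 0.06 in Dux KD, and rose by 1.64 ± 0.06 with the hairpin in Usp17le OE cells and by 0.28 ± 0.06 between Dux KD and the libraries labelled Dux KD-Usp17le OE (adjusted p = 4.01e-12, 4.57e-08, 5.62e-10 and 0.0153). Of the list, Ddit4 was thus lower and higher in the same comparisons as Gadd45g.

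The same list also held genes that rose. In Usp17le OE, Ddit4l rose by 2.17 ± 0.11, the p53-induced Sesn2 by 1.52 ± 0.08 and the antiproliferative Tob2 by 1.47 ± 0.09 (adjusted p = 5.4e-09, 5.43e-09 and 4.54e-08). In Dux KD, Sesn2 and Tob2 rose by 1.40 ± 0.08 and 1.00 ± 0.09 (adjusted p = 2.25e-08 and 1.42e-06), and Nupr1, a chromatin protein of the stress response, by 0.48 ± 0.09 (adjusted p = 0.000758, and 0.547 after scaling). Cdkn1c, which encodes the cell cycle inhibitor p57, fell by 1.22 ± 0.12 there (adjusted p = 2.16e-06) and rose by 0.86 ± 0.12 from Dux KD to the libraries labelled Dux KD-Usp17le OE (adjusted p = 0.00389). With the hairpin in Usp17le OE cells 9 rose and 3 fell (6 and 7 after scaling). Nupr1 rose by 2.86 ± 0.09 (adjusted p = 7.59e-10), and Btg3, Ddit4l and Plk3 fell by 1.75 ± 0.20, 1.25 ± 0.11 and 0.25 ± 0.10 (adjusted p = 9.43e-06, 6.52e-07 and 0.0487). Mean Nupr1 was 111 TPM for WT, 17.2 TPM for Usp17le OE and 125 TPM for Usp17le OE-Dux KD. Its rise with the hairpin thus started from a level far below WT. The summed level of the 19 genes was 1051 to 1074 TPM for WT, 465 to 467 TPM for Usp17le OE and 794 to 840 TPM in the remaining groups.

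The p53 targets, to which Gadd45a is usually counted, moved both ways. In Usp17le OE against WT, 12 of 18 rose and 4 fell (10 and 6 after scaling). Lists did not share genes, so Cdkn1a, which fell there, was counted with the cell cycle partners. Sesn2, which rose there, was counted with the other growth arrest genes. Tigar, a regulator of glycolysis, rose by 2.12 ± 0.07, Ccng1, cyclin G1, by 1.29 ± 0.06 and Trp53inp1 by 1.27 ± 0.06 (adjusted p = 2.73e-10, 3.32e-09 and 3.4e-09), and the death receptor Fas fell by 1.18 ± 0.37, the damage sensor Ddb2 by 1.13 ± 0.14 and Bbc3, the apoptosis gene PUMA, by 1.01 ± 0.08 (adjusted p = 0.0154, 1.12e-05 and 3.08e-07). The summed level of the list was 1071 to 1075 TPM for WT and 1695 to 1805 TPM for Usp17le OE. In Dux KD, 7 rose and 6 fell (4 and 12 after scaling), with Tigar at 0.90 ± 0.07, Xpc, a damage recognition factor, at 0.80 ± 0.09 and Zmat3 at 0.69 ± 0.07 (adjusted p = 4.43e-07, 5.49e-06 and 3.1e-06), and with Fas, Perp and Ccng1 at -1.68 ± 0.37, -0.45 ± 0.08 and -0.40 ± 0.06 (adjusted p = 0.00201, 0.00021 and 8.91e-05). With the hairpin in Usp17le OE cells 6 rose and 7 fell (4 and 10 after scaling). Zmat3 rose by 1.20 ± 0.07, Ddb2 by 0.91 ± 0.14 and Bbc3 by 0.83 ± 0.08, and Ccng1 fell by 1.09 ± 0.06, Eda2r by 0.85 ± 0.11 and Perp by 0.83 ± 0.08 (adjusted p = 2.93e-08, 7.3e-05, 1.77e-06, 1.65e-08, 1.55e-05 and 1.07e-06). None of the 18 was called between Dux KD and the libraries labelled Dux KD-Usp17le OE (3 rose after scaling), where only 2.88% of all genes rose and 8.3% fell (3.42% and 1.75% after scaling).

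**Figure D4:**
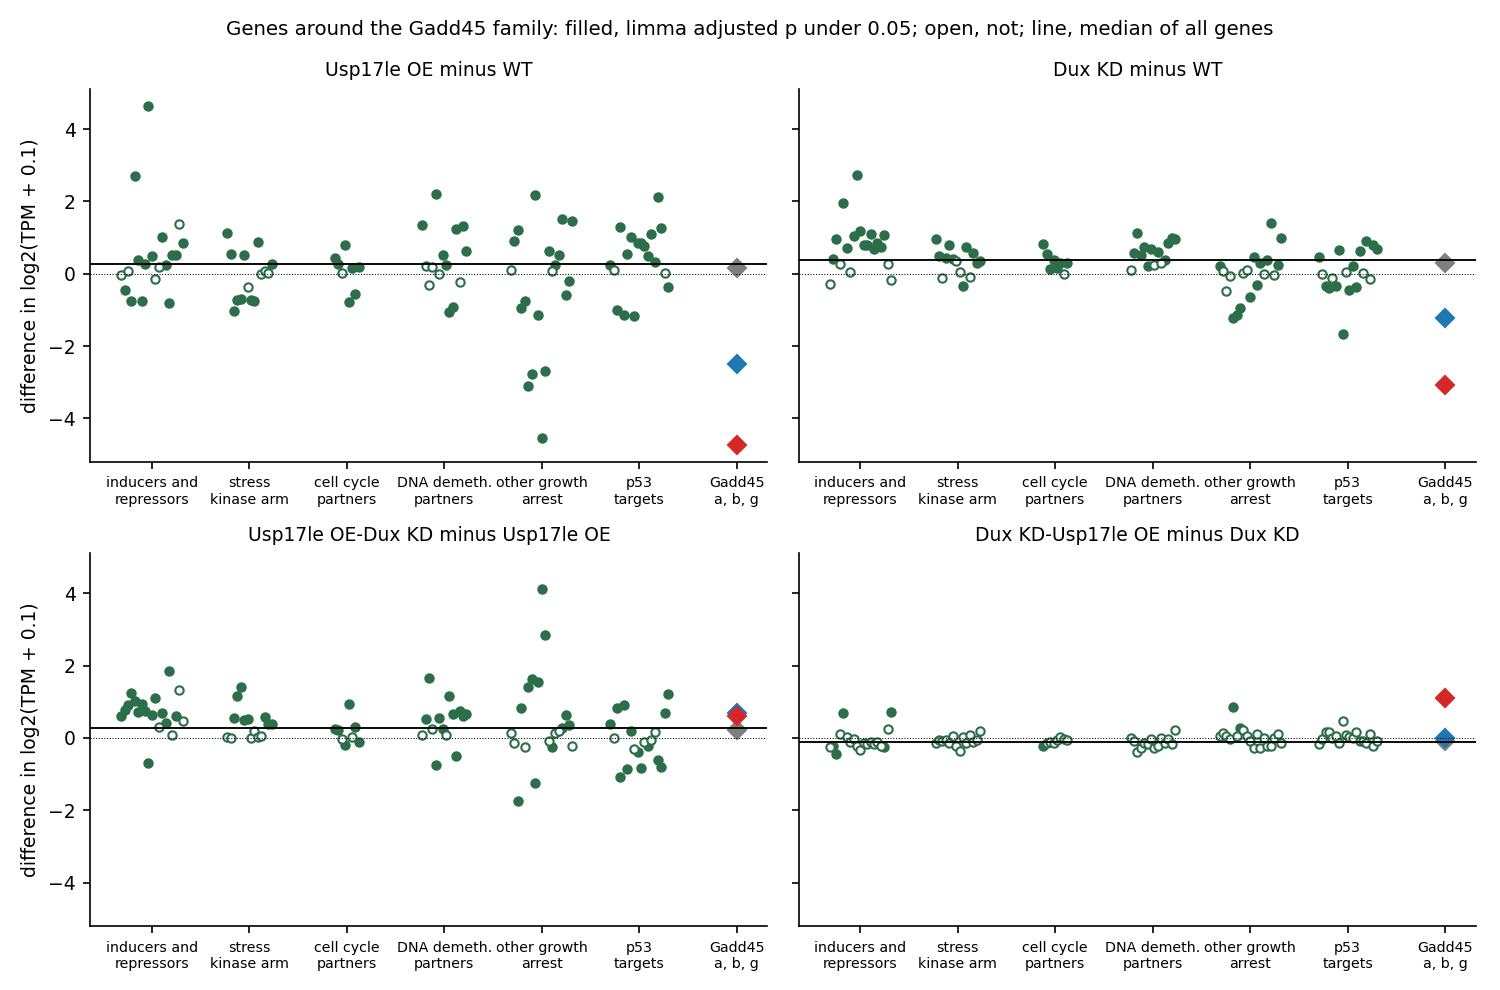
Differences in log2(TPM + 0.1) of the 92 tested genes of 6 lists in 4 comparisons; filled circles passed an adjusted p of 0.05, open circles did not, the black line is the median of all genes tested, and diamonds are Gadd45a (grey), Gadd45b (blue) and Gadd45g (red). Ndrg1 at -4.55 is the list gene closest to Gadd45g in Usp17le OE minus WT, and in Dux KD minus WT no list gene lies as low as Gadd45g at -3.08.

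The genes whose profile was most like each member were found by Pearson's r of log2(TPM + 0.1) over the 10 libraries, among 3923 or 3924 genes with a mean of at least 5 TPM and group means spanning at least 1 on the log2 scale. The libraries of a group lie close together, so these values rest on 5 levels and are a description only. Within the family, Gadd45b and Gadd45g had r = 0.96 (Spearman's rho 0.89), and Gadd45a had r = -0.43 with Gadd45b and -0.56 with Gadd45g. These values use TPM as deposited. After median-ratio scaling, Gadd45a lay below WT in Usp17le OE and Dux KD (-0.11 and -0.12). It also did in Usp17le OE-Dux KD and the libraries labelled Dux KD-Usp17le OE (-0.19 and -0.11). Gadd45b and Gadd45g were below WT in these groups too. Pearson's r after scaling was not computed for the members or the closest genes. Closest to Gadd45g were 5430416N02Rik (r = 0.983, rho 0.976), Rsrp1 (0.983, rho 0.952), Ankrd37 (0.980, rho 0.964), Tmem86a (0.973), Cyba (0.971), Phpt1 (0.971), Syce2 (0.970) and C330021F23Rik (0.964). Ankrd37, an ankyrin repeat gene induced by hypoxia, had means of 76.4 ± 0.313 TPM for WT, 39.7 ± 3.21 TPM in both libraries labelled Dux KD-Usp17le OE, 33.9 ± 0.166 TPM for Dux KD, 24.4 ± 0.398 TPM for Usp17le OE-Dux KD and 22.1 ± 1.90 TPM for Usp17le OE (SD, n = 2). It shared the order of Gadd45g over a far smaller range.

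Closest to Gadd45b were Anxa2 (r = 0.994, rho 0.927), Cyba (0.985, rho 0.976), Enpp5 (0.981), Rsrp1 (0.980), Gbe1 (0.979), Pycard (0.978), Fam195a (0.978) and Gm20748 (0.977). Anxa2, the membrane protein annexin A2, stood at 332 ± 3.76 TPM for WT, 97.2 ± 1.04 TPM for Usp17le OE, 188 ± 10.97 TPM for Dux KD, 150 ± 1.88 TPM for Usp17le OE-Dux KD and 191 ± 2.18 TPM in both libraries labelled Dux KD-Usp17le OE (SD, n = 2). Rsrp1 and Cyba, a subunit of NADPH oxidase, were among the 8 for both Gadd45b and Gadd45g. The genes closest to Gadd45a followed it less closely, from Sfrp5 (r = 0.883, rho 0.842) through Ak3 (0.837), Vars2 (0.833), Dctn1 (0.823), Numbl (0.815) and Chpf (0.814) to Capn15 (0.810). None of the 8 closest to Gadd45a was among the 8 of another member.

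**Figure D5:**
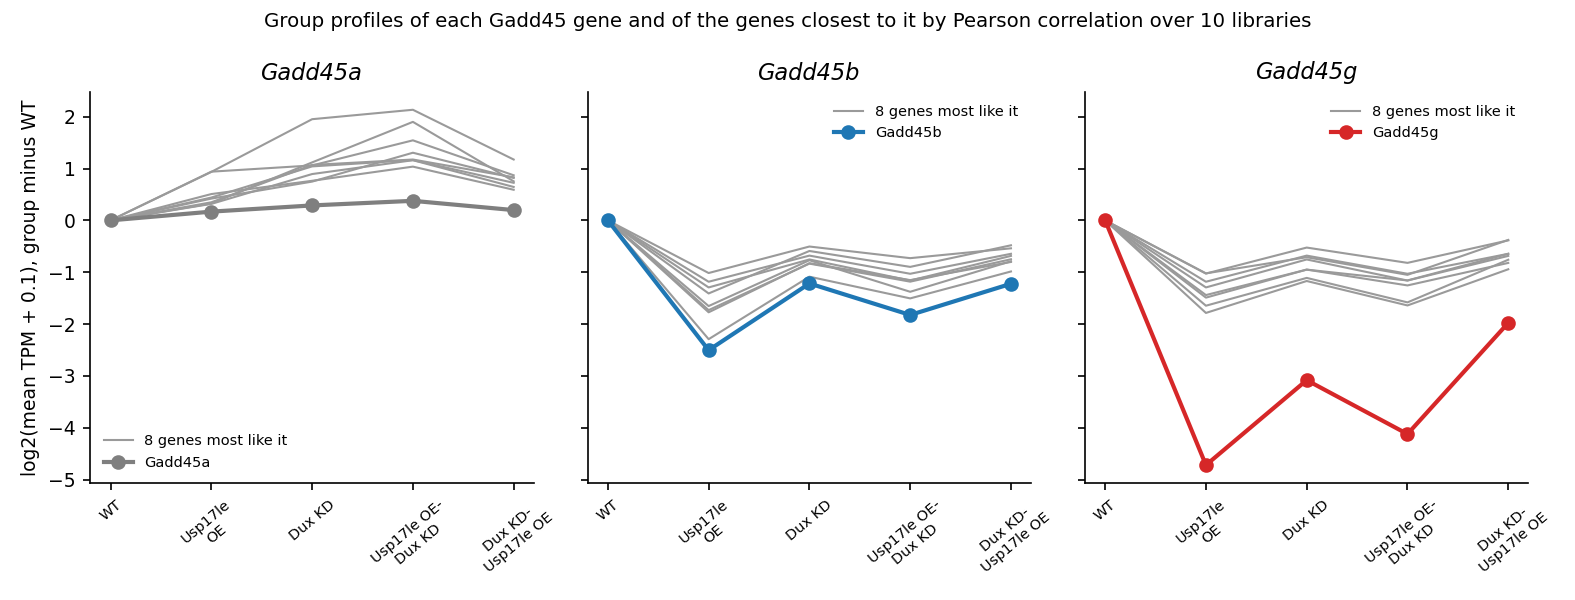
log2(mean TPM + 0.1) of each group minus WT for each Gadd45 gene (thick line) and for the 8 genes closest to it by Pearson's r over 10 libraries (thin lines). The closest genes were picked for sharing the shape of their member. The depth of Gadd45g, down to 2.27 TPM, is not reached by its 8 closest genes.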

How the data were processed

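Per the submitters' processing notes and the study's methods, the authors used Trim Galore for trimming, HISAT2 for alignment to mm10 and featureCounts for counting reads that map once, and deposited TPM with gene lengths. Versions and the annotation release are not given in the sources used here. Multiplying TPM by length gave whole reads (tolerance 0.01) for 100% of values. Counting ignored strand and drops reads shared by near-identical genes. A spreadsheet had turned 27 symbols into dates; these stayed in the fits.

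Values were fitted as log2(TPM + 0.1) in limma 3.58.1 (R 4.3.3) with 1 mean per group over 10 libraries, the trend and robust options, and the 14706 genes at 0.5 TPM or more in at least 2 libraries. Two-sided p-values were adjusted by the Benjamini-Hochberg method across every gene of a comparison. Fold changes on this scale understate changes of low genes. The fit was tested on simulated data.

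The members and lists were chosen with earlier results of these data known. The text names the members, up to 3 called genes per direction for each list in 4 comparisons, and the 8 closest genes per member, some of which are not reported here. Alternatives were the pseudocount, the filter, scaling, gene length, the groups fitted, the empirical Bayes options, a replicate block, voom, and leaving out each library. Promoter windows are RefSeq's (GRCm38.p6), matched by symbol for all 3 genes.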

Additional observations from a re-analysis of the deposited data

Results flagged for a closer look

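In 3 cases a member moved one way on one background and the opposite way on the other in every library, and these differences were not tested because the members were chosen for their levels. Libraries were apart for 82.8% of all genes between Usp17le OE and WT and 58.6% between Dux KD-Usp17le OE and Dux KD. For Dux KD and WT it was 80.5%, and for Usp17le OE-Dux KD and Usp17le OE 81.4%. The share of all genes with opposite directions was not computed. The overexpression difference of Gadd45g was -4.74 on WT cells and 1.10 on Dux KD cells, 5.84 apart. The knockdown difference of Gadd45g was -3.08 on WT cells and 0.60 on Usp17le OE cells, 3.68 apart. The knockdown difference of Gadd45b was -1.22 and 0.68 in the same comparisons, 1.90 apart. Of the 92 tested genes around the family, 64 had overexpression differences that differed between backgrounds and 55 had knockdown differences that did, by the limma difference of effects at an adjusted p under 0.05, where 57.9% and 43.9% of all genes tested did. The plasmid libraries on Dux KD cells held Usp17le at the WT level. With the hairpin in Usp17le OE cells, mean Usp17le fell from 32.1 to 10.8 TPM, and mean Dux (0.426 TPM) stayed above that of WT (0.188 TPM), from few reads.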

How the results depend on the processing

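Of the member differences, 337 of 399 alternative values stayed within the spread of the main value. The sign was opposite in 14, of which 10 were for Gadd45a, 4 for Gadd45b and 0 for Gadd45g. With scaling Gadd45a was -0.12 for Dux KD and -0.19 for Usp17le OE-Dux KD relative to WT, and with voom on recovered reads -0.0086 for Dux KD. For Usp17le OE minus WT, scaling gave -0.11, -2.77 and -5.00 for Gadd45a, Gadd45b and Gadd45g, the gene length correction 0.0021 and -2.66 for Gadd45a and Gadd45b, voom -2.58 for Gadd45b, and a pseudocount of 1 gave -4.28 for Gadd45g. For Dux KD minus WT, scaling and voom gave -1.63 and -1.51 for Gadd45b and -3.49 and -3.41 for Gadd45g. For Usp17le OE-Dux KD minus Usp17le OE they gave -0.079 and 0.0012 for Gadd45a, 0.37 and 0.44 for Gadd45b, and 0.30 and 0.38 for Gadd45g, and for Dux KD-Usp17le OE minus Dux KD 0.093 and 0.090 for Gadd45b. The cause was not tested.

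Leaving out single libraries gave -0.066 to 0.37 for Gadd45a and -4.95 to -4.52 for Gadd45g in Usp17le OE minus WT, and 0.0060 to 0.44 for Gadd45a, 0.62 to 0.74 for Gadd45b and 0.37 to 0.82 for Gadd45g in Usp17le OE-Dux KD minus Usp17le OE. Changed genes of the pathway lists in Dux KD-Usp17le OE minus Dux KD numbered 8, and 13 with the length correction, 17 with voom, 2 without the trend and robust options, and 2 to 13 when single libraries were left out. The other pathway counts stayed within 1.5 times. Replicate numbers only name the libraries, since same-numbered libraries did not deviate together (r of -0.0513 to 0.0482 over 10 pairs of groups). A replicate block gave 71, 67, 64 and 8 changed pathway genes in the 4 step comparisons against 73, 67, 65 and 8 without it. Depth limits Gadd45g in Usp17le OE, at 40 and 56 reads, and Dux, at 0 to 80 reads.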
